A study of Arabidopsis thaliana with 8 samples.

Results

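Of 11933 probe sets that stood for a single gene with a locus code as its symbol, 41 were selected as induced by imbibition and lower in signal when abscisic acid (ABA) was in the imbibition medium. The 8 arrays measured total RNA from seed of Arabidopsis thaliana accession Col-0 in 4 groups of 2, called replicates A and B. The groups were dry seed, which had no treatment, and seed imbibed for 24 h in water, in 3 µM ABA or in 30 µM ABA. No transgene or mutation is named for any group, and the labels give neither the age of the seed nor whether the replicates came from separate seed lots or imbibitions, so a p-value measures only the spread between these arrays. All values are signal intensities on a scale that set the 2% trimmed mean of each array to about 100. Whole seeds were sampled, so fewer cells of a type and less RNA per cell cannot be told apart in any value given here.

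The 41 genes were chosen by their values. A member had a mean signal of 100 or more after 24 h in water, a dry-seed mean at most 0.25 times that, and a mean in 30 µM ABA at most 0.67 times that, with both 30 µM arrays below both water arrays. The rule named 4 genes to be left out, and 2 of these met it. The contrasts of water with dry seed and of 30 µM ABA with water therefore describe the choice and show nothing beyond it. The 3 µM arrays were not used by the rule, but every comparison of them with another group shares that group's arrays with the rule.

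Dry seeds hold stored transcripts and start new transcription as they take up water. Growth of the embryo then depends on loosening of cell walls and on the weakening of the tissues around the embryo, and germination ends when the root tip breaks through. ABA is the hormone that holds this programme back, and applied ABA delays the rupture of the endosperm. The files and the gene table name the members only by locus code. The family roles given below come from general knowledge of the Arabidopsis genome, were assigned after the members were known, and cover 31 of the 41 genes. The other 10 are given by locus code.

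The members together made up a summed signal of 1191 and 1161 in the dry-seed arrays, 12625 and 13200 in water, 9986 and 8889 at 3 µM, and 7408 and 7358.5 at 30 µM ABA. The 3 µM arrays lay between the other imbibed groups, with replicate B below replicate A. Mean signal in water ran from 106 to 1458 with a median of 211, and mean signal in dry seed from 1.19 to 345 with a median of 7.90. In 12 members the dry-seed mean was under 3.99, the 20th percentile of all values, and without detection calls it cannot be told from no signal there. The ratio of water to dry signal was between 4.14 and 252, with a median of 25.5. In 30 µM ABA 32 members still had at least 4 times their dry-seed signal, and the median ratio to dry seed was 11.4.

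**Figure D1:**
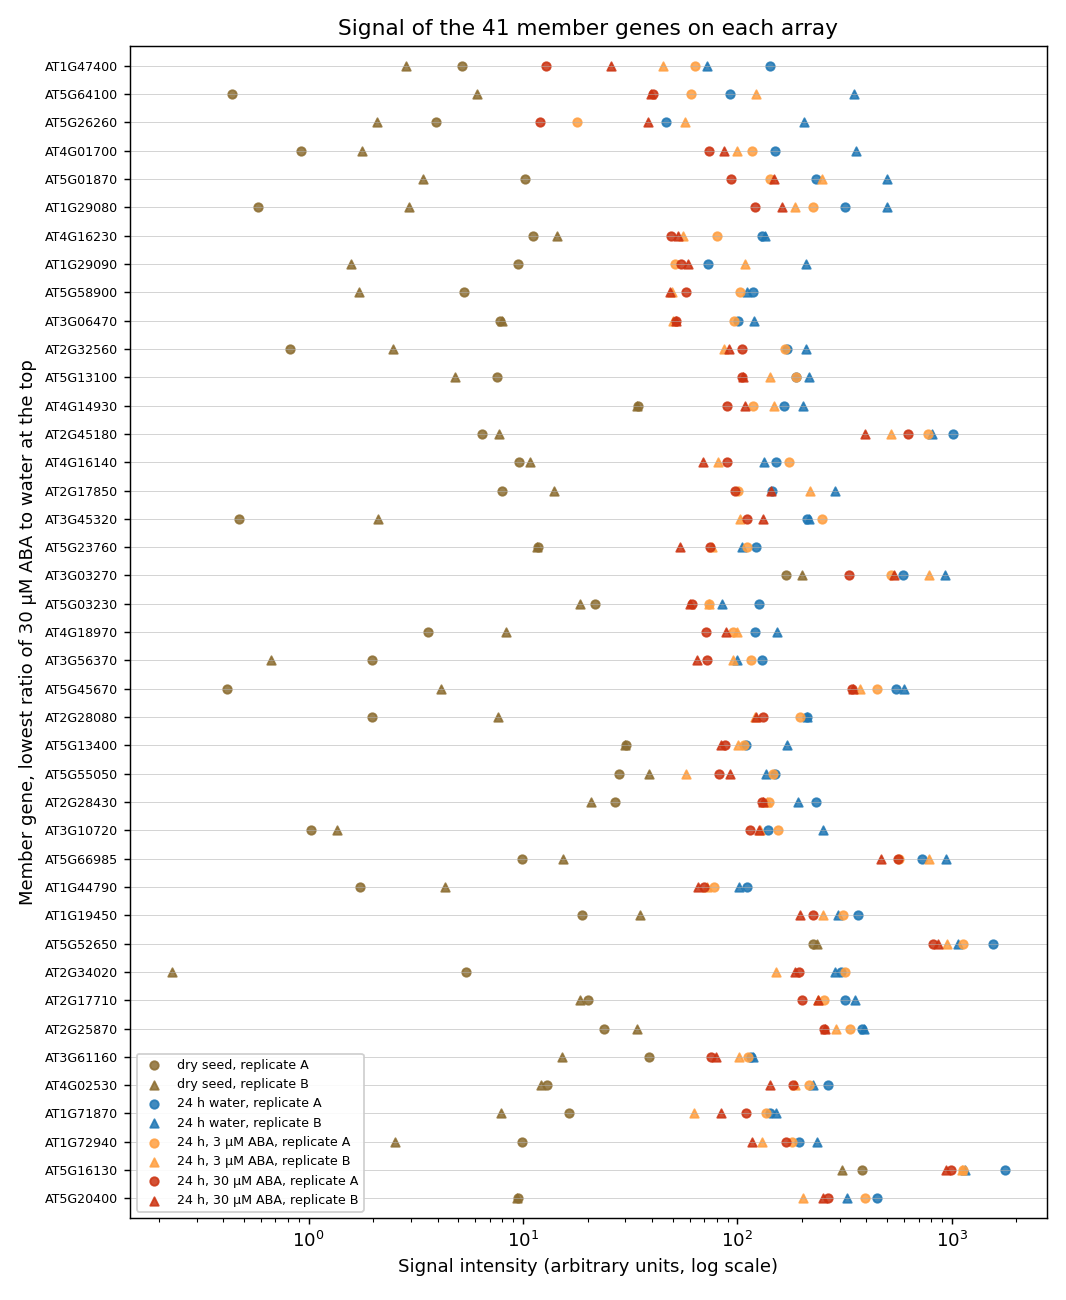
Signal intensity on a log axis for each of the 41 member genes, 1 gene a line, with a point for each of the 8 arrays; circles are replicate A and triangles replicate B. The genes are ordered by the ratio of 30 µM ABA to water, from 0.179 at the top to 0.666 at the bottom, and the 3 µM points mostly lie between those of water and 30 µM ABA.

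The groups were compared with limma in a single fit of all 8 arrays on log2(signal + 3.99), with p-values adjusted by the Benjamini-Hochberg method over all probe sets tested and a threshold of 0.05. Probe sets with a mean log2 value at or under the 30th percentile were left out beforehand, and all 41 members passed that filter, which the rule's demand on the water signal favours. Over all 15922 probe sets tested, limma called 37.5% higher in water than in dry seed, and it called 41 of the 41 members so. It called 0.0377% of all tested probe sets, 6 in number, lower in 30 µM ABA than in water, and 2 of these were members. At an unadjusted p under 0.05, 33 members and 505 of all tested probe sets were lower. The median log2 difference of 30 µM ABA to water was -0.73 over the members and 0.016 over all probe sets tested. These counts restate the choice of the members.

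Most probe sets that rose this much with imbibition were not in the set. Of 540 eligible probe sets that met the water and dry limits, the members were 7.59%, and 496 were neither members nor left out by name. These 496 stood for 495 genes, of which 1, AT2G25870, is also a member through another probe set. Over those 496, the ratio of 30 µM ABA to water had a median of 0.879 with quartiles of 0.803 and 0.959, and 82.9% lay below 1. None of them reached 1.5 times water. Of the same 496, 10 had ratios of at most 0.67 but arrays that overlapped. The members are thus the low end of a continuous distribution, and the limit of 0.67 falls on its slope. The members just inside that limit were AT5G20400 at 0.666 and AT5G16130 at 0.665, and the genes just outside it were AT1G52220 at 0.672 and AT5G56710 at 0.672. At the water limit AT5G03230 with a mean of 105.7 and AT1G44790 with 106 were inside, and AT1G44000 with 99.6 and AT1G67750 with 96.6 outside. At the dry limit AT3G03270 at 0.241 and AT5G16130 at 0.237 were inside, and AT3G22210 at 0.262 and AT3G51870 at 0.287 outside.

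**Figure D2:**
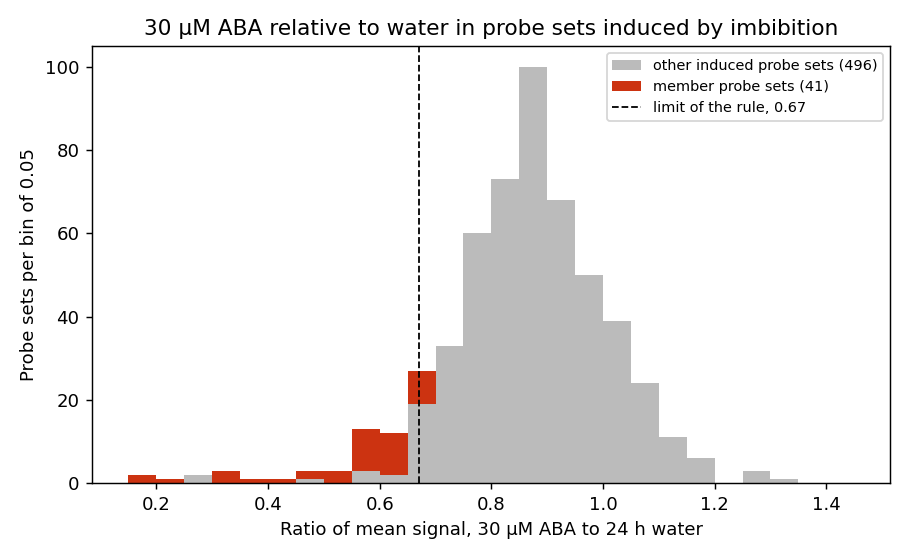
Number of induced probe sets in each bin of 0.05 of the ratio of mean signal in 30 µM ABA to mean signal in 24 h water, for the 496 other induced probe sets in grey and the 41 members stacked on them in red. The dashed line is the limit of 0.67 used to choose members; the median of the grey probe sets is 0.879, and no gap separates the colours.

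Of the 10 members with a ratio of 30 µM ABA to water of at most 0.5, 4 were placed in a group of wall and secreted enzymes. This group was made by hand after the members were known. Where its proteases act was not tested, and lipid transfer proteins, also secreted, were placed in another group. The 5 members of the group had a median ratio of 0.346 in 30 µM ABA and 0.503 in 3 µM ABA, against 0.585 and 0.725 over all 41. Both medians depended on the water replicate. With water replicate A alone the median over the 5 in 30 µM ABA was 0.537, against 0.578 over all members. With water replicate B alone it was 0.270, against 0.574. At 3 µM ABA, replicate A over water replicate A ran from 0.661 to 1.11 over the 5, with a median of 0.816 over all members. Replicate B over water replicate B ran from 0.277 to 0.515, with a median of 0.625 over all members. The summed signal of the 5 was 12.5 and 13.8 in dry seed, 769 and 1669 in water, 607 and 642 at 3 µM, and 404 and 473 at 30 µM ABA. The water arrays differed more from each other than water replicate A did from the 3 µM arrays.

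AT5G64100 encodes a class III peroxidase, of a family that oxidises phenolic compounds and can cross-link or loosen the wall. Its signal was 0.438 and 6.11 in dry seed, 92.0 and 351 in water, 60.9 and 122 at 3 µM, and 40.3 and 39.5 at 30 µM ABA. Water replicate B stood well above every other array, and 3 µM replicate B overlapped the water group. Its log2 difference of 30 µM ABA to water was -2.07 (SE 0.57) with a limma adjusted p of 0.230. The ratio of 30 µM ABA to water was 0.434 with water replicate A alone and 0.114 with water replicate B alone.

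AT4G01700 encodes a chitinase, an enzyme class known from defence against fungi that also appears in germinating seed. Its signal was 0.919 and 1.77 in dry seed, 149 and 358 in water, 117 and 99.2 at 3 µM, and 73.6 and 86.7 at 30 µM ABA. All imbibed groups were separate, in the order water, 3 µM and 30 µM. AT3G10720 encodes a pectin methylesterase, which removes methyl groups from wall pectin. It had 1.02 and 1.36 in dry seed, 139 and 250.1 in water, 154 and 127 at 3 µM, and 115 and 126 at 30 µM ABA, so that 3 µM replicate A exceeded water replicate A.

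AT1G29080 and AT1G29090 lie next to each other on chromosome 1 and both encode papain-type cysteine proteases, which break down protein. They were the only members that were neighbours. AT1G29080 had 0.582 and 2.93 in dry seed, 316 and 499.8 in water, 224 and 186 at 3 µM, and 120.4 and 162 at 30 µM ABA. Its groups did not overlap at any step, and the limma adjusted p for 30 µM ABA against water was 0.0552, just short of the threshold. AT1G29090 had 9.50 and 1.58, 72.7 and 209.7, 50.9 and 108, and 54.5 and 58.9 in the same order of groups. Here 3 µM replicate A was as low as the 30 µM arrays while 3 µM replicate B lay inside the water range. The measured gene on the other side of AT1G29080, AT1G29070, also rose with imbibition, from a mean of 191 in dry seed to 1028 in water, and its ratio of 30 µM ABA to water was 0.922. The probe sequences were not used here, so how far the protease probe sets share targets was not tested.

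A further 7 members belong to families that act on or carry lipids, 4 of them in a family with roles in both surface and storage lipids; this grouping was made by hand after the members were known. Their summed signal was 67.8 and 84.7 in dry seed, 2302 and 2455 in water, 1780.4 and 1405 at 3 µM, and 1315 and 1175 at 30 µM ABA. In this sum the groups were separate at every step, and the water arrays lay close together. Single genes were less regular. AT5G01870 had 2.15 times more signal in water replicate B than in A. AT2G45180, AT5G01870, AT5G55050 and AT3G06470 each had imbibed groups that overlapped. The median ratio to water over the 7 was 0.557 in 30 µM ABA and 0.709 in 3 µM ABA.

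These 4 encode GDSL esterases or lipases, a large family that includes enzymes of cuticle and storage lipid metabolism. AT4G16230 had 11.1 and 14.4 in dry seed, 130.1 and 135 in water, 80.7 and 55.8 at 3 µM, and 49.2 and 52.7 at 30 µM ABA. Its water replicates were within a few units of each other, and all groups were separate. It was called lower in 30 µM ABA than in water, with a log2 difference of -1.31 (SE 0.22, limma adjusted p = 0.0428). Over the 16 settings and subsets of arrays that were run, this adjusted p ranged from 0.00471 to 0.344 and passed the threshold in 10. It was 0.152 and 0.189 without water replicate B or A, and 0.243 and 0.344 without 30 µM replicate A or B.

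AT5G45670 was the brightest gene of the GDSL members and had the largest ratio of water to dry seed of all 41, although its dry-seed signal was in the range that cannot be told from none. It had 0.416 and 4.15 in dry seed, 552 and 601 in water, 446 and 371 at 3 µM, and 342 and 348 at 30 µM ABA. AT4G18970 had 121 and 152 in water, 95.6 and 99.7 at 3 µM, and 71.5 and 88.4 at 30 µM ABA. Both genes had 3 separate imbibed groups. AT5G55050 had 149.9 and 136 in water and 82.5 and 92.4 in 30 µM ABA, but 147 and 57.9 in 3 µM ABA, where replicate A was at the water level and replicate B below both 30 µM arrays.

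Lipid transfer proteins are small secreted proteins that bind lipids and take part in building the cuticle. AT2G45180, of the wider lipid transfer and protease inhibitor family, was the third brightest member in water. It had 6.47 and 7.74 in dry seed, 1015 and 810.5 in water, 773 and 521 at 3 µM, and 624 and 393 at 30 µM ABA. In each ABA group replicate A exceeded replicate B, and the ABA doses overlapped. AT5G01870, a lipid transfer protein, had 10.2 and 3.40, 233 and 500.4, 141 and 249, and 93.7 and 149 in dry seed, water, 3 µM and 30 µM ABA. Replicate B was above replicate A in all imbibed groups. AT3G06470 encodes a protein of the fatty acid elongase type and had 7.84 and 7.95, 101 and 119, 96.2 and 50.2, and 51.6 and 52.0 in the same order.

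Among the 5 members concerned with transport and metals, AT1G47400 had the lowest ratio of 30 µM ABA to water of all 41, at 0.179. It encodes a short peptide of the iron deficiency response. A gene for a closely related peptide lies beside it, and whether the probe set also detects that transcript was not tested. Its signal was 5.17 and 2.83 in dry seed, 142 and 72.1 in water, 63.2 and 45.1 at 3 µM, and 12.7 and 25.6 at 30 µM ABA. The groups did not overlap, and the water arrays differed from each other by more than the lower of them did from the 30 µM mean. It was the other member called lower in 30 µM ABA, with a log2 difference of -2.24 (SE 0.37, limma adjusted p = 0.0423). Over the same 16 settings the adjusted p ranged from 1.67e-07 to 0.237 and passed in 10. It was 0.207 and 0.0625 without water replicate A or B, and 0.237 and 0.218 without 30 µM replicate A or B.

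Of 17 genes listed for the iron deficiency response, 3 had a probe set that stood for a single gene, AT1G47400 among them. PYE, which encodes a transcription factor of this response, had 219.5 and 139.7 in dry seed, 98.8 and 76.0 in water, 78.6 and 101 at 3 µM, and 66.7 and 95.2 at 30 µM ABA. It was lower in water than in dry seed (log2 difference -0.98, limma adjusted p = 0.00686), and the imbibed groups overlapped. BHLH101, which encodes another such factor, did not exceed 4.16 on any array.

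The other members of this kind are a sugar transporter, AT1G19450, a major facilitator transporter, AT5G13400, a MATE transporter, AT1G71870, and a protein with a heavy-metal-associated domain, AT5G23760. AT1G19450 was the brightest of them and had 18.8 and 35.1 in dry seed, 366 and 295 in water, 312 and 249.6 at 3 µM, and 226 and 197 at 30 µM ABA. Its 3 µM and water arrays overlapped. AT1G71870 had 142 and 151 in water, 135 and 62.8 at 3 µM, and 109.9 and 83.6 at 30 µM ABA, and 3 µM replicate B was its lowest imbibed array. The mean ratio to water over the 5 genes ran from 0.179 to 0.661 in 30 µM ABA and from 0.506 to 0.850 in 3 µM ABA.

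The 5 regulators had low to middling signal, with means in water between 114 and 214. AT5G58900, a MYB-related transcription factor, had the lowest ratio to water in 30 µM ABA among them, at 0.464. Its signal was 5.29 and 1.72 in dry seed, 118 and 111 in water, 103 and 49.7 at 3 µM, and 57.6 and 48.3 at 30 µM ABA. The 3 µM arrays differed from each other, with replicate A near water and replicate B at the 30 µM level. The F-box protein gene AT2G32560 showed the same split, with 171 and 209 in water, 167 and 86.9 at 3 µM, and 106 and 91.5 at 30 µM ABA. A second probe set for AT2G32560 did not exceed 4.36 on any array. AT2G32560 and AT2G25870 were the only 2 members with another eligible probe set, and in neither did the other probe set meet the rule.

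The leucine-rich repeat receptor-like kinase gene AT3G56370 had the highest ratio of 3 µM ABA to water of all members. It had 1.98 and 0.669 in dry seed, 129.9 and 99.9 in water, 116 and 95.4 at 3 µM, and 72.5 and 64.5 at 30 µM ABA, a ratio of 0.921 at the lower dose. Its measured neighbour AT3G56360 rose from a mean of 35.4 in dry seed to 558 in water with a ratio of 30 µM ABA to water of 0.980. AT3G61160, which encodes a kinase of the shaggy type, had 38.6 and 15.3, 116 and 119, 112 and 102, and 75.5 and 79.5 in dry seed, water, 3 µM and 30 µM ABA. AT1G72940, which encodes a protein with a TIR domain of the resistance-gene kind, had a ratio of 0.664 in 30 µM ABA and 0.725 in 3 µM ABA.

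The brightest members were the genes of 2 ribosomal proteins of the small subunit. AT5G16130, for a protein of family S7e, had 381 and 309 in dry seed, 1768 and 1149 in water, 1123 and 1110.2 at 3 µM, and 994 and 945 at 30 µM ABA. AT5G52650, for a protein of family S10e, had 225 and 235, 1552 and 1067, 1132 and 950.4, and 819.7 and 864 in the same order. Water replicate A was the highest array for both. The 99th percentile of signal on that array was 1496, against 1162 on water replicate B and 1069 to 1140 on the ABA arrays. After quantile normalization, which gives all arrays the same distribution, the ratios of 30 µM ABA to water were 0.755 and 0.718, and both genes then missed the limit of 0.67.

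Of the 4 other enzymes, AT5G20400, a 2-oxoglutarate-dependent oxygenase, was the brightest, with 9.47 and 9.40 in dry seed, 449.9 and 325 in water, 392 and 203 at 3 µM, and 265 and 252 at 30 µM ABA. The others were a UDP-glycosyltransferase (AT2G28080), an enzyme of the ChaC type that breaks down glutathione (AT1G44790) and a rhodanese (AT2G17850). AT2G17850 had 8.01 and 14.0 in dry seed, 145 and 285 in water, 100.2 and 217 at 3 µM, and 97.5 and 144 at 30 µM ABA, with replicate B higher in every group. AT2G28080 had 212 and 210.1 in water, 197 and 121 at 3 µM, and 132 and 122 at 30 µM ABA. AT1G44790 had 111 and 102, 77.7 and 72.3, and 69.8 and 65.2 in these groups, which were separate. Ratios over the 4 ran from 0.560 to 0.666 in 30 µM ABA and from 0.705 to 0.768 in 3 µM ABA. On these means the range was narrower than that of the wall and secreted enzymes, but it depended on the water replicate. With water replicate A alone the ratios in 30 µM ABA ran from 0.574 to 0.830 here and from 0.434 to 0.868 there. With water replicate B alone they ran from 0.423 to 0.794 here and from 0.114 to 0.481 there.

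AT5G26260, which encodes a TRAF-like protein, had the lowest ratio of all at 3 µM ABA, 0.298. Its signal was 3.92 and 2.09 in dry seed, 46.3 and 204 in water, 17.8 and 56.8 at 3 µM, and 12.0 and 38.5 at 30 µM ABA. Replicate B exceeded replicate A in each imbibed group, and the ranges of the imbibed groups overlapped except those of water and 30 µM ABA. AT3G03270, of the universal stress protein family, had high signal in dry seed already, with 168 and 201, 592 and 934, 520.3 and 786, and 332 and 538 in dry seed, water, 3 µM and 30 µM ABA. AT4G02530, for a protein of the thylakoid lumen, had 264 and 226 in water, 215 and 186 at 3 µM, and 182 and 142 at 30 µM ABA.

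The 10 members with no role given had mean signal in water between 105.7 and 830.0 and ratios of 30 µM ABA to water between 0.524 and 0.657. AT5G66985 was the brightest, with 9.86 and 15.4 in dry seed, 725 and 935 in water, 569.8 and 779 at 3 µM, and 564 and 469 at 30 µM ABA. AT2G25870 had 23.9 and 33.9, 382 and 391, 333 and 289, and 253 and 255 in the same order, with close replicates and no overlap between groups. A second eligible probe set for AT2G25870 did not follow it, with 11.0 and 12.1 in dry seed, 122 and 87.1 in water, 179.9 and 92.4 at 3 µM, and 70.9 and 87.6 at 30 µM ABA. Its groups overlapped, and its ratios to water were 0.757 at 30 µM and 1.30 at 3 µM ABA. AT4G16140 had 151 and 133 in water, 174 and 81.0 at 3 µM, and 89.4 and 69.0 at 30 µM ABA, with 3 µM replicate A above both water arrays. AT3G45320 showed the same, with 212 and 216 in water, 248 and 103 at 3 µM, and 111 and 131 at 30 µM ABA.

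AT5G13100 and AT4G14930 had separate groups throughout. AT5G13100 had 7.58 and 4.81 in dry seed, 188 and 216 in water, 187 and 141 at 3 µM, and 105 and 107 at 30 µM ABA, so replicate A at the lower dose was just under water. AT4G14930 had 34.3 and 33.9, 166 and 202, 119 and 149, and 89.1 and 109 in the same order. In AT2G28430 the ABA groups were close to each other, with 233 and 192 in water, 140.0 and 138 at 3 µM, and 131 and 131 at 30 µM ABA.

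At 3 µM ABA the mean signal lay below water and above 30 µM ABA in 41 of the 41 members. Because the rule took genes with high water and low 30 µM arrays, part of this order is built into the choice. Among the 496 other induced probe sets, 50.6% had means in the same order and 76.4% had a 3 µM mean below water. The ratio of 3 µM ABA to water ran from 0.298 to 0.921 over the members with a median of 0.725, and its median over the other induced probe sets was 0.928. On the log2 scale, with 0 at the water mean and 1 at the 30 µM mean, the 3 µM mean lay at a median of 0.61, from 0.16 in AT3G56370 to 1.08 in AT1G71870, where the log means gave the reverse order to the linear ones. It lay at 0.5 or beyond in 30 members.

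The order was less regular over single arrays than over means. Both 3 µM arrays lay below both water arrays in 24 of the 41 members, against 11.7% of all tested probe sets and 19.4% of the other induced probe sets. Both 30 µM arrays lay below both 3 µM arrays in 23 members, against 17.9% of all tested probe sets and 26.6% of the other induced probe sets. All imbibed groups were separate in 16 members, and the share of other probe sets with this separation was not counted. The rule sets the water and 30 µM arrays of members apart, which favours each of these counts. Limma called 0 members lower in 3 µM ABA than in water, with 0% of all tested probe sets called, and 8 members and 164 probe sets in all were lower at an unadjusted p under 0.05. Those 8 were AT1G29080, AT2G17710, AT4G01700, AT2G28430, AT4G14930, AT4G16230, AT3G06470 and AT1G47400. The adjusted p was 0.999 for each of the 41. For 30 µM against 3 µM ABA limma also called 0 members, with 0% of all tested probe sets called lower, and 3 members (AT5G13100, AT3G56370 and AT1G47400) and 165 probe sets in all were lower at an unadjusted p under 0.05. The median log2 difference of the members was -0.45 for 3 µM ABA against water and -0.36 for 30 µM against 3 µM ABA, where all tested probe sets had 0.025 and -0.018. Against dry seed, limma called 41 of the 41 members higher in 3 µM ABA, as it did 37.9% of all tested probe sets.

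**Figure D3:**
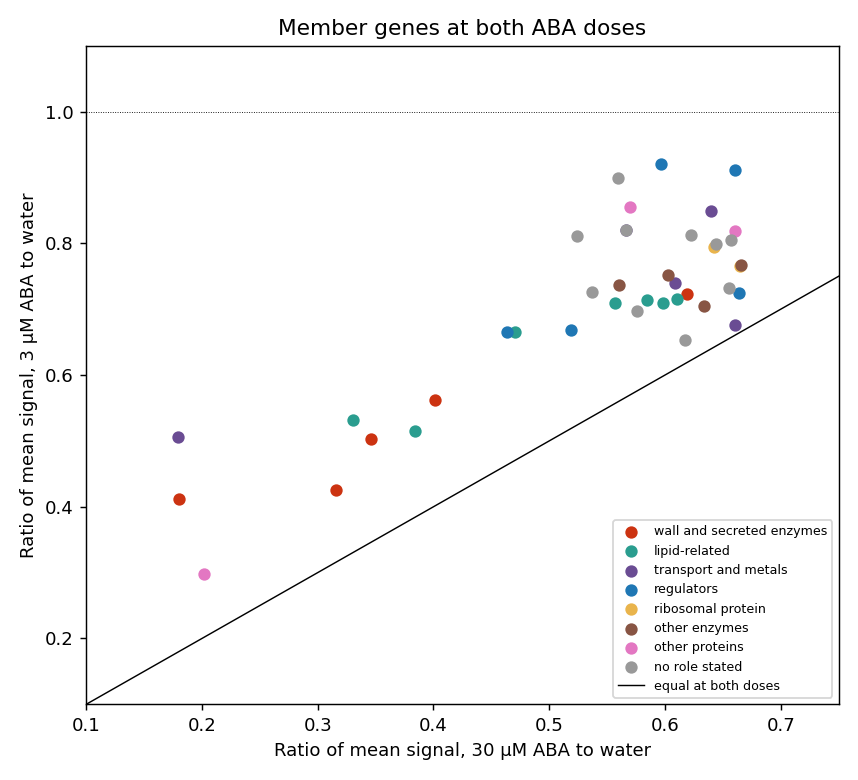
Ratio of mean signal to water in 3 µM ABA (vertical axis) against 30 µM ABA (horizontal axis), 1 point for each of the 41 members, coloured by role. Both ratios share the water arrays as denominator, and all points lie above the diagonal of equal effect. The wall and secreted enzymes have a median of 0.346 across, 0.537 with water replicate A alone, and 0.503 up. Both medians depend on which water replicate is used.

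The place of the 3 µM group depended on how arrays were scaled. The 3 µM mean was below the water mean in 41 members with the deposited scaling, after quantile normalization and after division by the array median. With scaling by the bacterial spike-in controls it was below in 30 members, with a median ratio of 0.910, and AT3G56370, AT3G61160, AT3G03270, AT1G19450 and AT4G16140 were among the 11 that were not. With that scaling the median log2 difference of all probe sets to water was 0.29 at 3 µM and -0.19 at 30 µM ABA, where it was 0.025 and 0.016 with the deposited scaling, and the median of the members at 3 µM was -0.18. The 11 exceptions fell among the regulators, the transport and metal genes, the other proteins and the genes with no role given. In the remaining groups all 3 µM means lay below the water means under all scalings that were run. These were the wall and secreted enzymes, the lipid-related genes, the ribosomal protein genes and the other enzymes. With spike-in scaling their ratios ran from 0.510 in AT5G64100 to values close to water, such as 0.969 in AT5G52650 and 0.979 in AT5G20400. Both 3 µM arrays lay below both water arrays in 4 of the 41 members with that scaling.

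The 3 µM replicates were not alike. Relative to the mean of the water arrays, the median log2 value of the members was -0.27 in 3 µM replicate A and -0.55 in replicate B, while the 30 µM replicates stood at -0.72 and -0.77. Replicate A was above replicate B in 32 of the 41 members, and in 61.1% of the other induced probe sets. Replicate A was at or above the lower water array while replicate B was at or below the higher 30 µM array in 5 members, AT2G34020, AT3G45320, AT4G16140, AT5G20400 and AT5G55050. The opposite arrangement was found in 5 others, AT1G29090, AT2G17850, AT3G03270, AT5G01870 and AT5G26260. Among the other induced probe sets these arrangements had shares of 42.9% and 25.6%. The rule leaves a gap between the water and 30 µM arrays of members, which makes both arrangements harder to meet. The lower shares in members are therefore in part built into the choice, and how far was not tested. The sample titles number the 3 µM replicates 3 and 5, whereas the replicates of every other group share a number.

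The water replicates also differed in a subset of members. The rule used the mean of the water arrays, so a single high water array helped a gene to pass, and the choice favours such genes. Signal was at least 1.5 times higher in water replicate A than in B in 2 members, AT1G47400 and AT5G16130, against 5.65% of the other induced probe sets. It was at least 1.5 times higher in B than in A in 10 members, against 5.04% of the other induced probe sets. The 10 were the peroxidase, pectin methylesterase and chitinase genes, both protease genes, AT5G01870, AT5G26260, AT2G17850, AT3G03270 and AT5G13400, so that all 5 wall and secreted enzymes were among them. Of the 10, 8 had replicate B above A in 30 µM ABA as well and 6 in 3 µM ABA. They also held 6 of the 10 members whose signal in 30 µM ABA was at most 0.5 times that in water. The 29 members with water arrays within 1.5 times of each other had ratios from 0.384 to 0.666, and 3 of them were at or under 0.5. The lowest ratios thus came mostly from genes with unequal water replicates, and their size depends on which replicate is used. For the 10 genes the median ratio was 0.527 when replicate A in 30 µM ABA was set against replicate A in water and 0.311 for replicate B against B.

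**Figure D4:**
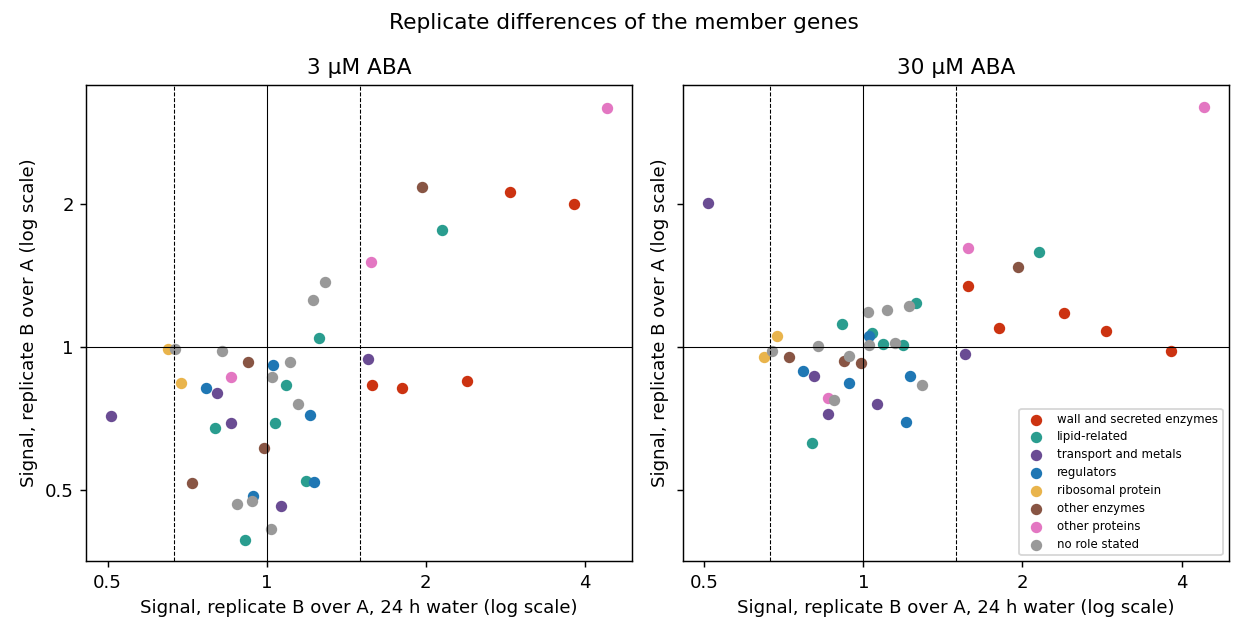
Ratio of replicate B to replicate A in 3 µM ABA (left) and 30 µM ABA (right) against the same ratio in 24 h water, on log axes, 1 point for each of the 41 members, coloured by role. Dashed lines mark 1.5 times in either direction in water; of the 10 genes to the right, 6 lie above 1 in 3 µM ABA and 8 in 30 µM ABA.

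Across the 41 members, the log2 difference of replicate B to A in water had a correlation of 0.66 with that in 3 µM ABA and 0.46 with that in 30 µM ABA, and these were 0.31 and 0.23 across all tested probe sets. The points share the arrays, so the values only describe these libraries. The 3′ to 5′ signal ratio of control transcripts is a sign of RNA integrity. Among the imbibed arrays it was highest in water replicate A in every pair of control probe sets except an actin pair. A pair of GAPDH probe sets gave 1.31 and 1.05 in water and 0.884 to 0.974 on the ABA arrays. The other GAPDH pair gave 0.927 and 0.371 in water, and 0.520 to 0.557 on the ABA arrays. An actin pair gave 2.94 and 3.80 in water and 2.30 to 2.73 on the ABA arrays, and a ubiquitin pair 1.83 and 0.792 in water and 0.722 to 0.982 on the ABA arrays. The spike-in signal was 125 and 161 in water, 96.1 and 142 at 3 µM and 147 and 186 at 30 µM ABA. The part of these differences in the members' signal was not tested.

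Few markers of the labelled tissue could be read. Of 14 seed storage and oil body genes, 3 had a probe set for a single gene. AT1G03890, of the seed storage globulin kind, had 2056 and 1919 in dry seed, 29.6 and 27.9 in water, 35.9 and 46.6 at 3 µM, and 73.0 and 65.2 at 30 µM ABA, and limma called it lower in water than in dry seed and higher in 30 µM ABA than in water (log2 difference 1.16, adjusted p = 0.0294). OLEO3, an oleosin of the oil body, had 919 and 618, 207 and 199, 281 and 267, and 325 and 463 in the same order. The third, AT3G01570, of the oleosin family, had 3618 and 1464, 632 and 568, 782 and 962, and 1067 and 1043. Of 6 leaf, root and pollen markers, 3 had such a probe set, MUTE, EXPA7 and XIE, and none exceeded 24.3 on any array. MUTE was low but rose, from 1.99 and 0.947 in dry seed to 17.8 and 12.0 in water (log2 difference 1.78, limma adjusted p = 0.000987). EXPA7 went the other way, from 9.90 and 5.52 to 0.707 and 1.70. The seed coat markers BAN and DFR did not exceed 16.3. None of 30 ABA signalling genes and none of 5 endosperm markers had a probe set for a single gene in the table of names, so they are not analysed here.

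The members were spread over all chromosomes, with 7, 8, 6, 6 and 14 on chromosomes 1 to 5. Chromosome 5 held 34.1% of them and 22.6% of the eligible genes. Apart from the protease pair no members were neighbours, and other genes beside members did not follow them as a rule. AT3G45310, beside AT3G45320, rose from a mean of 25.1 in dry seed to 1487 in water and had a ratio of 30 µM ABA to water of 0.803. AT5G64110, beside the peroxidase gene AT5G64100, did not exceed 12.5 on any array.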

How the data were processed

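The 8 arrays were single-colour, biotin-labelled oligonucleotide arrays of 22810 probe sets, of which 64 were controls. Per the submitters' processing notes the authors made the deposited signal intensities with MAS5, whose version is not given in the sources used here; the values are linear, and the 2% trimmed mean of each array is 100.0. No detection calls were used here, and no sequences are shown. The precision is limited by 2 arrays in each group.

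Genes were named from the platform's probe annotation: 13513 of the 22746 other probe sets had 1 gene, 503 had several and 8730 are unnamed here. All 41 members matched the RefSeq gene table by locus code. Values were tested as log2(signal + 3.99), the 20th percentile of all values, with limma 3.58.1 (R 4.3.3), a group term, an intensity trend in the variance and Benjamini-Hochberg adjustment over 15922 probe sets. The members, the gene lists and the tests were chosen with earlier results of these data known. Family groupings by gene description could not be made, as the gene table has none, so roles were assigned by hand. Named with values were the members called, the 10 brightest, the 10 lowest in ratio, the 5 lowest and 5 highest in 3 µM ABA, the nearest to each limit, and examples of each role chosen after their values were seen. The fit was tested on simulated data. Alternatives covered the pseudocount, scaling, filter, replicate letter as a block, limits of the rule and leaving out each array.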

Additional observations from a re-analysis of the deposited data

How the results depend on the processing

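The number of members was 68 and 22 with a water minimum of 50 and 200, 10 and 134 with a 30 µM to water limit of 0.5 and 0.8, and 179 with spike-in scaling. It was 45 after quantile normalization, 35 of them shared with the 41, and 48 after division by the median, 33 of them shared. Leaving out a water or 30 µM array, an alternative chosen after seeing the data, gave 56 to 81 members, where the order of arrays had fewer values to satisfy. Of the 41, 32 met the rule without water replicate A and 30 without B.

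Members called lower in 30 µM ABA than in water, 2 as reported, were 0 with a pseudocount of 1 or no filter, 8 with spike-in scaling and 4 with the replicate block (AT4G16230, AT5G64100 at an adjusted p of 0.0354, AT1G29080 at 0.0220, and AT1G47400, by limma), and 0 to 3 with an array left out. All probe sets called lower, 6 as reported, were 0 with a pseudocount of 1, 16 with a pseudocount of 16, 10 with median centring, 79 with spike-in scaling, 0 without the filter, 21 with the replicate block and 0 to 11 with an array left out. The labels do not say that letters mark shared seed or runs; over all tested probe sets the deviations of A and B correlated by 0.31 and 0.23 between water and the ABA groups, 0.088 between the ABA groups and -0.08 to 0.06 with dry seed, so pairing was not taken as given. The counts of 0 from a left-out array came from leaving out either water or either 30 µM array. Spike-in scaling also called 1 member lower in 30 µM than in 3 µM ABA, moved the median log2 difference of these doses from -0.36 to -0.85, and left 4 members with both 3 µM arrays below both water arrays. The cause of these changes was not tested. With an array left out, the median of the members was -0.55 to -0.27 for 3 µM ABA against water, -0.48 to -0.20 for 30 µM against 3 µM ABA and -0.79 to -0.72 for 30 µM ABA against water.

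The precision is set by the 2 arrays in a group, and 12 members had dry-seed signal too low to rank. Over 615 refits of single members for 30 µM ABA against water, 591 stayed on the same side of the threshold. All but 2 members were not called as reported, so most of the 591 stayed by remaining uncalled. Both members that were called lost the call in some refits. The rule itself fixes the direction in most refits.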
